A study of Mus musculus with 36 samples.

Results

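Mouse embryonic stem cells (ESCs) that lack MLL3 and keep MLL4 were compared with the day 4 embryoid bodies made from them, to read which genes change when these cells leave the undifferentiated state. The comparison rests on 4 of the series' 12 RNA libraries, chosen by their labels as MLL3-/-;MLL4flox/flox (called f/f here), with 2 libraries of ESCs and 2 of bodies. Among the 36 samples of the series are 24 of chromatin or input DNA, which were left aside. The MLL3 deletion is carried by every sample compared, so no group has both enzymes, and the floxed MLL4 gene was left intact in f/f cells. ESCs grew with the cytokine LIF on a layer of irradiated embryonic fibroblasts. Bodies were aggregates kept 4 days in suspension in the same medium without LIF. A further 4 libraries, 2 of MLL3-/-;MLL4-/- ESCs and 2 of their day 4 bodies (called DKO), shared the model's estimate of spread and serve as a comparison at the end. Removal of the fibroblasts before lysis is stated for the chromatin samples only, and the labels do not say whether the 2 libraries of a group are separate cultures, so the p-values reflect a spread that may be technical.

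ESCs in serum and LIF rest in a state called naive pluripotency, held by a network of transcription factors that includes KLF4, ESRRB and TFCP2L1 and fed by LIF through STAT3. When LIF is withdrawn and cells aggregate, they pass through a primed state like the postimplantation epiblast, in which the core factors OCT4 (Pou5f1), SOX2 and NANOG are still present and FGF5, OTX2 and POU3F1 appear. Wnt and Nodal signals then induce the genes of the primitive streak, such as brachyury (Tbxt), Mixl1 and Eomes, from which mesoderm and definitive endoderm arise. MLL3 and MLL4 (genes Kmt2c and Kmt2d) are histone H3 lysine 4 methyltransferases that place monomethylation at enhancers.

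Replicate 1 of each group was deposited as counts and RPKM (reads scaled by transcript length and library size) per transcript, and replicate 2 as FPKM (the same for fragments) per gene. The depth recovered behind these values was 18418131 reads in replicate 1 and 21573243 in replicate 2 of f/f ESCs, and 18660221 and 11366198 in f/f bodies. The replicate is therefore also a batch that was quantified differently, and each body library was compared only with the ESC library of its own batch. Paired values below are replicate 1 in RPKM and then replicate 2 in FPKM. Overlap of groups is read across both units. Called genes were named by the size of their change, so a lack of overlap only describes them. A log2 change is bodies minus ESCs on the scale log2(value + 1), averaged over the batches, with its standard error (SE) and n = 2 libraries per group. A gene was called when limma's adjusted p was under 0.05 and the change had the same sign in both batches.

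Of 12466 genes tested, 1495 were called (12% of all genes), of which 1014 rose in bodies (8.13%) and 481 fell (3.86%). Without any threshold on p, 9064 genes changed in the same direction in both batches. A change of at least 2-fold in both batches was seen upwards in 359 genes (2.88%) and downwards in 174 (1.40%), and 6 genes (0.0481%) changed at least 2-fold in opposite directions. The median change of all genes was 0.06. Called genes moved further in replicate 2 than in replicate 1 in 1043 of 1495 cases. The excess of increases depended on the scaling: with median-of-ratios scaling 815 genes rose (6.54%) and 724 fell (5.81%), with quantile scaling 664 (5.33%) and 558 (4.48%), and with edgeR on recovered reads 789 (6.33%) and 745 (5.98%). The number of calls rested on each library. Leaving out replicate 1 of f/f ESCs or of f/f bodies left 3 calls, leaving out replicate 2 of either left 0 (limma, 2289 genes at an unadjusted p under 0.05), and leaving out replicate 1 or 2 of DKO ESCs left 920 or 938.

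**Figure D1:**
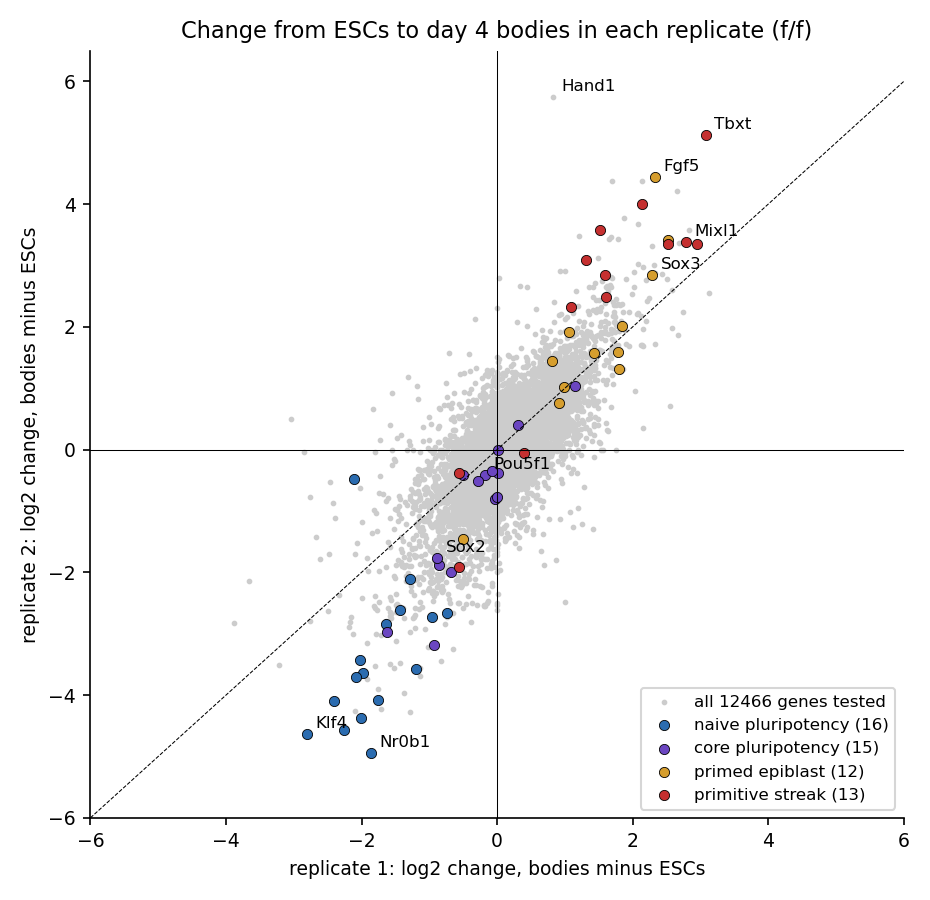
Log2 change from ESCs to bodies in replicate 1 (horizontal axis) and replicate 2 (vertical axis) for each of the 12466 genes tested in f/f cells, with 4 gene lists in colour and a dashed line of equal change. Genes of naive pluripotency lie in the lower left and most genes of the primitive streak in the upper right, mostly with the larger change in replicate 2, while Hand1 changed mainly in replicate 2.

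Neither targeted gene was called, and each was higher in bodies in replicate 1 and lower in replicate 2. Kmt2d (MLL4, Entrez gene 381022) was at 13.5 and 18.7 in ESCs and at 16.4 and 15.4 in bodies, a log2 change of 0.00 ± 0.22 (limma, adjusted p = 0.993). Kmt2c (MLL3), deleted in all of these cells, was at 1.89 and 3.44 in ESCs and at 2.32 and 2.06 in bodies. These are values over the whole transcript and do not isolate a deleted exon, so they check no label. Of 14 tested subunits and relatives of the KMT2 complexes, none was called (limma, median change -0.04). Over all genes 12% were called, and a list this short cannot be told apart from that share.

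The naive network fell. Of 16 tested genes of naive pluripotency, 10 fell and none rose, against 3.86% of all genes that fell, and all 16 were lower in bodies in both batches, as were 30.3% of all genes. The list's median change was -2.77, and it was -1.92 in replicate 1 and -3.61 in replicate 2, with 15 of the 16 genes lower still in replicate 2. Klf4, a Krüppel-like factor of the reprogramming cocktail, was at 88.6 and 88.8 in ESCs and at 11.8 and 2.60 in bodies. Its log2 change was -3.72 ± 0.56 (limma, adjusted p = 0.0181), and both body libraries lay far under both ESC libraries. Klf2, its close relative, went from 265 and 208 to 54.8 and 7.80 (-3.41 ± 0.52, adjusted p = 0.0182). Esrrb, an orphan nuclear receptor of the same network, went from 200.4 and 174 to 49.2 and 7.48 (-3.18 ± 0.55, adjusted p = 0.0222). In each of these the groups did not overlap, and the lowest library was replicate 2 of the bodies.

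Other naive regulators followed. Nr0b1 (DAX1), a nuclear receptor that binds OCT4, went from 61.1 and 90.1 to 16.1 and 1.96 (-3.40 ± 0.69, adjusted p = 0.0315). Tcl1, a cofactor of the kinase AKT, went from 31.9 and 27.1 to 5.19 and 0.643 (-3.25 ± 0.51). Tfcp2l1, a transcription factor that acts under LIF, went from 71.3 and 45.3 to 16.1 and 2.53 (-2.90 ± 0.48). Fbxo15, a known OCT4 target that is not needed for pluripotency, went from 59.8 and 70.9 to 14.02 and 5.71 (-2.72 ± 0.36). Of the naive genes that were not called, Dppa5a was the most abundant, at 1025 and 1975 in ESCs and at 259 and 156.7 in bodies (-2.81 ± 0.83, limma adjusted p = 0.0745). Prdm14, a repressor of FGF signalling, was at 5.28 and 8.15 and then at 2.75 and 0.441 (adjusted p = 0.0868). Tbx3 was at 34.3 and 11.9 and then at 7.17 and 8.26, and here the larger difference lay in replicate 1 (adjusted p = 0.0963).

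Zfp42 (REX1), a marker widely used to tell naive from primed cells, was at 211 and 348 in ESCs and at 62.1 and 19.7 in bodies (-2.91 ± 0.59, limma adjusted p = 0.0315). Its promoter window is shown because it holds letters known for OCT4 and for KLF factors. RefSeq gives the window, 250 bases before to 50 bases after the start site, as chr8:43306960-43307259 on the minus strand of GRCm38.p6. Capitals mark the reverse complement of the octamer ATGCAAAT that OCT4 recognises, which begins at position -186 from the start site, and of the KLF letters GGGTGTGG, which begins at position -75.
Zfp42: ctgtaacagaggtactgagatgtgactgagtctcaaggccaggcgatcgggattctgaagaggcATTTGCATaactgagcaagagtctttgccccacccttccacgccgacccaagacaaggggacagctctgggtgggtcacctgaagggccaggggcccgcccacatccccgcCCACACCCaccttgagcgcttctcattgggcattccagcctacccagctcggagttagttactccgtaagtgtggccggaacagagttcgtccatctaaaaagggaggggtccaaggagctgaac
Searched on both strands, the octamer letters occurred in 1.74% of 32851 promoter windows of that length and the KLF letters in 3.56%. Of the 15 largest decreases 13 had a window, and the octamer letters lay in those of Zfp42 and Tnc. Among all called decreases with a window (384 genes) the octamer letters were in 1.82% and the KLF letters in 3.91%, against 1.64% and 4.36% of the 9753 tested genes with a window. A match of letters is a description of the sequence and not a site.

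Part of the LIF pathway fell as well. Of 11 tested genes, 4 fell (3.86% of all genes fell) and none rose, with a median of -0.96. The count was 7 with the 4 f/f libraries alone and 9 with DESeq2. Socs3, the feedback inhibitor that STAT3 induces, went from 84.3 and 46.6 to 14.2 and 6.69 (-2.56 ± 0.32, limma adjusted p = 0.0152). Bcl3, another STAT3 target, went from 27.8 and 28.2 to 6.22 and 4.46 (-2.21 ± 0.36), and Stat3 itself from 30.3 and 33.9 to 10.7 and 8.65 (-1.64 ± 0.16). The groups did not overlap in any of the 3. The receptor genes were not called: Lifr was at 11.25 and 7.77 and then at 6.30 and 3.17 (adjusted p = 0.150), and Il6st (gp130) at 17.4 and 23.6 and then at 13.4 and 11.15 (adjusted p = 0.126). The kinase gene Jak1 was at 12.1 and 14.2 in ESCs and at 17.1 and 16.4 in bodies (adjusted p = 0.122).

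Core pluripotency genes had a median change of -0.39, against -2.77 for the naive list. Of 15 tested, 2 fell (3.86% of all genes fell), 1 rose (8.13% of all genes) and 12 were not called. In both batches 11 were lower, as were 30.3% of all genes. The number that fell depended on the setting, with 5 under median-of-ratios scaling, 4 under quantile scaling, 3 with edgeR and 7 with DESeq2. Pou5f1, which encodes OCT4, was at 409.6 and 650.4 in ESCs and at 361.9 and 489.4 in bodies, a log2 change of -0.29 ± 0.14 (limma, adjusted p = 0.211). Nanog was at 177.7 and 212 in ESCs and at 125.5 and 159.5 in bodies (-0.45 ± 0.15, adjusted p = 0.0928). Each was lower in bodies within its batch. For Pou5f1 the groups overlapped only across the batches, which are in different units. Sox2 was at 276 and 224 and then at 148.9 and 64.8 (-1.33 ± 0.35, adjusted p = 0.0575), without overlap and short of the threshold. Dnmt3l, the cofactor of the de novo DNA methyltransferases, went from 141 and 89.2 to 45.4 and 10.5 (-2.30 ± 0.39, adjusted p = 0.0219). The TGF-beta family ligand Gdf3 fell from 24.9 and 32.3 to 13.3 and 8.05 (-1.37 ± 0.31). Lin28b, which blocks maturation of let-7 microRNAs, was the member that rose, from 8.33 and 6.29 to 19.7 and 14.02 (1.098 ± 0.22, adjusted p = 0.0302).

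**Figure D2:**
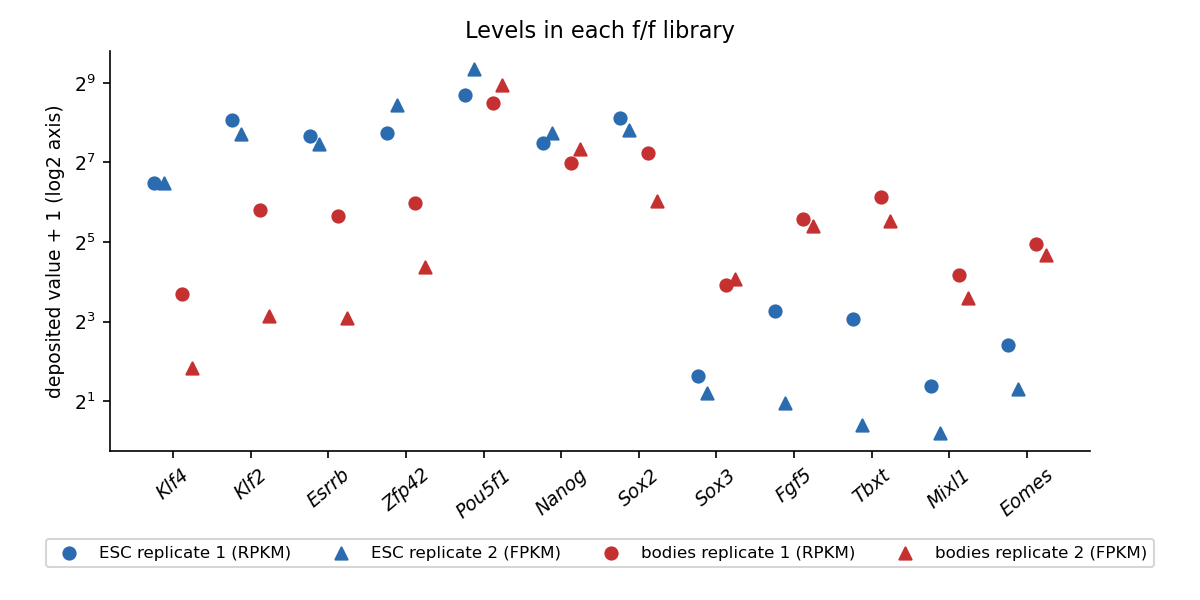
Deposited value + 1 on a log2 axis in each of the 4 f/f libraries for 12 genes, with ESCs in blue, bodies in red, replicate 1 (RPKM) as circles and replicate 2 (FPKM) as triangles. Klf4, Klf2, Esrrb and Zfp42 are lower in both body libraries, Pou5f1 and Nanog lie close together in all 4, and Sox3, Fgf5, Tbxt, Mixl1 and Eomes are higher in both body libraries.

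Genes of the primed epiblast were higher in bodies. Of 12 tested, 6 rose (8.13% of all genes rose) and 1 fell (3.86% of all genes), the median change was 1.54, and 11 of 12 were higher in both batches, as were 42.4% of all genes. With the 4 f/f libraries alone 11 members were called higher, and with DESeq2 10. Sall2, a zinc finger factor, went from 3.36 and 1.52 to 24.1 and 26.0 (2.97 ± 0.64, limma adjusted p = 0.0353). Sox3, a close relative of Sox2, went from 2.13 and 1.32 to 14.3 and 15.7 (2.57 ± 0.28, adjusted p = 0.0135). Pou3f1 (OCT6) went from 12.2 and 10.2 to 45.95 and 44.5 (1.93 ± 0.46), and Zic2 from 26.6 and 22.2 to 93.7 and 69.1 (1.69 ± 0.15). In all of these the body libraries lay above both ESC libraries.

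The textbook primed marker Fgf5 was not called although its change was close to that of the leading called genes. It was at 8.55 and 0.926 in ESCs and at 47.2 and 41.0 in bodies, a log2 change of 3.39 ± 0.87 (limma, adjusted p = 0.0553), with the larger change in replicate 2, whose ESC level was the lowest. Otx2, which opens epiblast enhancers, was at 25.5 and 15.4 and then at 70.5 and 48.1 (1.51 ± 0.47, adjusted p = 0.0837). Dnmt3b, a de novo DNA methyltransferase, was at 94.0 and 74.0 and then at 196 and 282 (1.49 ± 0.71, adjusted p = 0.209). All 3 were higher in both body libraries than in either ESC library.

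The primitive streak list had the highest median change of all lists, 2.22. Of its 18 genes, 13 passed the filter on low values and 8 of those rose, while 5 did not pass it, with values up to 4.00 in these libraries. Since a gene that is near 0 in ESCs can pass the filter only through its level in bodies or in DKO cells, this count and the median are descriptions. The count was 5 with edgeR or a pseudocount of 0.1. Tbxt, the T-box factor that defines the streak, was at 7.32 and 0.317 in ESCs and at 69.5 and 45.1 in bodies (4.11 ± 0.57, limma adjusted p = 0.0166), the largest increase among named genes. Mixl1, a homeobox factor of the streak, went from 1.59 and 0.162 to 17.0 and 11.1 (3.09 ± 0.25, adjusted p = 0.0135). Eomes, the T-box factor for endoderm and cardiac mesoderm, went from 4.36 and 1.48 to 29.7 and 24.4 (2.94 ± 0.27, adjusted p = 0.0135). Fgf8, the growth factor that streak cells need to migrate, went from 5.75 and 0.527 to 28.8 and 23.5 (3.07 ± 0.63). In each case ESC replicate 2 was the lowest library, ESC replicate 1 came next and both body libraries lay above them. Not all of the list moved: Cdx1 was at 2.23 and 0.768 and then at 1.19 and 0.352 (adjusted p = 0.308). The organizer gene Gsc was at 2.54 and 0.316 and then at 6.57 and 5.62 (adjusted p = 0.0855).

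Of 24 tested Wnt ligands, receptors and targets, 9 rose (8.13% of all genes rose), 1 fell (3.86% of all genes) and 14 were not called, and the median change was 0.65. As for the streak, members near 0 in ESCs passed the filter through a group where they are higher, so this count and median are descriptions. With a mean of at least 5, 13 were tested, 5 rose and the median was 0.37. Of the 24, edgeR called 6 higher and DESeq2 12. Among ligands, Wnt8a went from 2.22 and 0.336 to 17.4 and 8.17 (2.65 ± 0.28, limma adjusted p = 0.0135) and Wnt3, the ligand needed to form the streak, from 1.39 and 0.149 to 6.23 and 7.26 (2.22 ± 0.37, adjusted p = 0.0210). Wnt5a was at 0.635 and 2.24 and then at 1.47 and 4.14 (adjusted p = 0.124), higher within each batch and not called. Among receptors, Fzd2 went from 6.32 and 5.57 to 30.9 and 28.9 (2.15 ± 0.21, adjusted p = 0.0135), almost the same change in both batches. Fzd5 was the member that fell, from 24.2 and 23.3 to 8.70 and 5.47 (-1.64 ± 0.22), and the target Axin2, a feedback inhibitor, rose from 4.56 and 1.63 to 12.8 and 8.47 (1.58 ± 0.20, adjusted p = 0.0151). Fzd5 and Axin2 were named after their values were seen.

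Sp5, a transcription factor gene directly induced by Wnt and beta-catenin in the streak, went from 3.65 and 0.796 in ESCs to 35.0 and 17.2 in bodies (3.15 ± 0.42, limma adjusted p = 0.0160). Its promoter window is shown because it was the only one of the 15 largest increases, 10 of which had a window, to hold the TCF/LEF letters CTTTGAT through which beta-catenin reaches DNA. RefSeq gives the window as chr2:70474673-70474972 on the plus strand of GRCm38.p6. Capitals mark the letters, which begin at position -104 from the start site.
Sp5: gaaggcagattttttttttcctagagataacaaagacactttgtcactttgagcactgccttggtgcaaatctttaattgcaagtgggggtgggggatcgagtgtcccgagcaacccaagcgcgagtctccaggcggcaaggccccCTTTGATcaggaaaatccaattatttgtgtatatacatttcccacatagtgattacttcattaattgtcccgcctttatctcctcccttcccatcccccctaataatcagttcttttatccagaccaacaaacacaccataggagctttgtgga
On both strands these letters occurred in 3.73% of all windows, in 2.57% of the 777 called increases with a window and in 1.56% of the called decreases, against 2.87% of tested genes. T-box letters (AGGTGTGA) and FOXH1 letters (AATCCACA) lay in none of the 10 windows of the largest increases, and in 1.28% and 0.855% of all windows.

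Nodal pathway genes moved in both directions. Of 16 tested, 6 rose (8.13% of all genes rose) and 2 fell (3.86% of all genes), and the median change was 0.16. Nodal itself was at 31.3 and 18.6 in ESCs and at 33.4 and 28.4 in bodies (0.34 ± 0.25, limma adjusted p = 0.381), and its coreceptor Tdgf1 (Cripto) was at 114 and 288 and then at 112 and 164 (adjusted p = 0.270). Downstream, Foxh1, the DNA-binding partner of SMAD2 and SMAD3, rose from 30.0 and 25.4 to 81.2 and 79.9 (1.51 ± 0.15, adjusted p = 0.0135). Pcsk6, a convertase that cleaves the Nodal precursor, fell from 10.98 and 15.2 to 5.34 and 3.73 (-1.35 ± 0.23). Within each batch Nodal was thus higher in bodies but not called, while Foxh1 was called.

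BMP genes included 5 of 16 that rose (8.13% of all genes rose) and 1 that fell (3.86% of all genes), with a median of 0.54. Members near 0 in ESCs, such as Msx1, passed the filter through a group where they are higher, so these counts are a description. With a mean of at least 5, 9 were tested and 3 rose. The homeobox targets Msx1 and Msx2 rose: Msx1 from 0.759 and 0.0480 to 7.88 and 2.46 (2.03 ± 0.29, limma adjusted p = 0.0168), and Msx2 from 0.804 and 1.07 to 2.63 and 14.5 (1.96 ± 0.45, adjusted p = 0.0432). The receptor Bmpr1a rose from 13.4 and 10.7 to 22.5 and 22.3 (0.85 ± 0.14), and the inhibitor Id4 fell from 5.99 and 4.11 to 2.13 and 1.59 (-1.07 ± 0.24). The other members that rose, named after their values were seen, were the BMP effectors Smad1 (0.82 ± 0.16) and Smad5 (0.65 ± 0.13). Bmp4 went opposite ways in the batches, from 15.4 to 5.59 in replicate 1 and from 5.42 to 13.6 in replicate 2. In the FGF list 2 of 17 rose (8.13% of all genes rose) and 1 fell (3.86% of all genes), with a median of -0.06. With edgeR none rose. The 2 that rose were Fgf8 and the receptor Fgfr1 (20.7 and 21.7 to 31.4 and 42.1, 0.75 ± 0.16). The feedback inhibitor Spry4 fell (57.3 and 26.6 to 30.9 and 7.11, -1.32 ± 0.21). Fgf4, the autocrine ligand of ESCs, was at 35.1 and 48.6 and then at 20.5 and 6.48 (adjusted p = 0.0741). Of 12 Notch pathway genes 1 rose (8.13% of all genes rose), the receptor Notch2 (0.89 ± 0.12), and 11 were not called. In the FGF and Notch lists the counts were near the shares of all genes.

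Among regulators of early endoderm and mesoderm, a few rose to low levels. Of 8 tested genes of definitive endoderm 3 rose, 1 fell and 4 were not called, and of 6 tested early mesoderm genes 2 rose, Msx1 and Msx2, and 4 were not called. As for the streak, genes near 0 in ESCs passed the filter through a group where they are higher, so these counts are a description. With a mean of at least 5 only 1 endoderm gene and 2 mesoderm genes were tested and none was called by limma. Foxa2, the pioneer factor of endoderm, went from 1.66 and 0.137 to 6.12 and 4.49 (1.85 ± 0.24, limma adjusted p = 0.0159). Gata4 went from 0.880 and 0.546 to 3.33 and 5.57 (1.65 ± 0.30) and Gata6 from 0.833 and 0.464 to 3.29 and 3.44 (1.41 ± 0.22). Prdm1 (BLIMP1) was the member that fell, from 5.98 and 6.69 to 2.33 and 1.35. Hand1, a factor of lateral and extraembryonic mesoderm, showed the widest gap between batches of all genes with a word-like symbol: it was at 0.572 and 0.171 in ESCs and at 1.78 and 62.0 in bodies (3.29 ± 1.23, adjusted p = 0.125). One body library carries that value.

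Lists of later or other lineages gave few increases. No blood or endothelial gene was called of 6 tested, none of 7 tested Hox genes of 39 listed, and none of 13 germline genes (all limma). Over all genes 12% were called, and lists this short cannot be told apart from that share. Of the 13 germline genes 11 were lower in both batches, as were 30.3% of all genes. Blood or endothelial genes that were not tested reached at most 7.04. Hox genes that were not tested reached at most 1.51 in these 4 libraries. The neural determinants Sox1 and Pax6 summed to 1.05 RPKM and 0.766 FPKM in bodies, whereas Nes (nestin), an intermediate filament gene also made outside the neural lineage, rose from 14.5 and 10.2 to 50.2 and 50.7 (1.96 ± 0.47, adjusted p = 0.0458). That call was lost with a pseudocount of 0.1, with a mean of at least 5, with median-of-ratios or quantile scaling, with edgeR and with DESeq2. Tubb3, a neuronal tubulin gene and the other called member of 4 tested, fell (-1.04 ± 0.23, limma adjusted p = 0.0363), being at 44.9 and 42.8 in ESCs and at 28.0 and 15.3 in bodies. The yolk sac genes Afp and Ttr were listed at 0 or at most 1.59 in each library. Of 10 listed trophoblast genes 5 were tested and 3 of these fell (3.86% of all genes fell). Tfap2c led, from 53.8 and 49.5 to 17.3 and 6.71 (-2.15 ± 0.31, limma adjusted p = 0.0176). Krt7 went the other way in both batches, from 1.16 and 1.81 to 1.72 and 3.16, and was not called. The markers Elf5 and Gata3 were also higher in bodies in both batches, at up to 1.42. Of 9 tested genes of extraembryonic endoderm, Lama1 (8.96 and 14.4 to 2.55 and 2.02, -1.92 ± 0.32) and Apoe fell and none rose by the calls. In both batches 4 of the 9 were lower and 3 were higher, and the median change was 0.09. Among those higher were Dab2 (1.51 and 2.61 to 3.64 and 4.28, limma adjusted p = 0.0746) and Sparc (63.6 and 94.2 to 94.1 and 113). The 2-cell-like list had no tested gene.

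**Figure D3:**
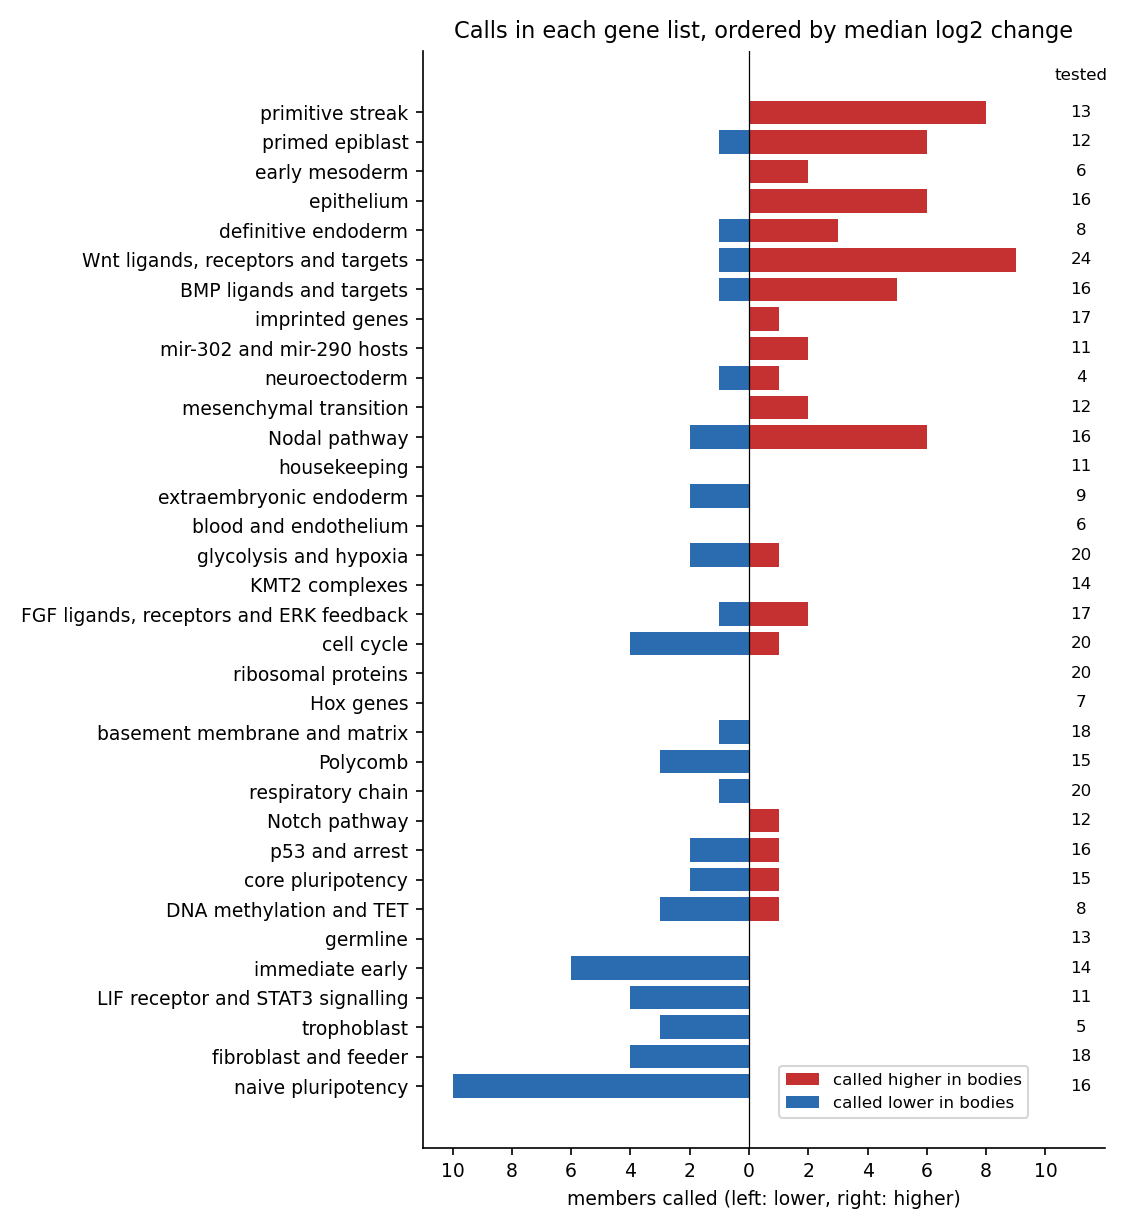
Number of members of each gene list called higher (red, right) or lower (blue, left) in f/f bodies than in f/f ESCs, with the number tested at the right edge and lists ordered by median log2 change. Primitive streak stands at the top with 8 of 13 and naive pluripotency at the bottom with 10 of 16.

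The keratin genes Krt18 and Krt8 were among the 15 largest increases. Of 16 tested epithelial genes 6 rose (8.13% of all genes rose) and none fell, with a median of 0.81. The products of Krt18 and Krt8 pair to form the first keratin filaments of the embryo. Krt18 went from 38.3 and 13.5 to 171 and 302 (3.26 ± 0.58, limma adjusted p = 0.0237). Krt8 went from 13.9 and 9.17 to 47.4 and 209.6 (3.04 ± 0.64, adjusted p = 0.0338), with most of the level in replicate 2. Krt19 went from 12.3 and 4.12 to 44.9 and 54.1 (2.61 ± 0.45) and the desmosome gene Dsp from 4.59 and 1.54 to 16.6 and 26.4 (2.54 ± 0.44). E-cadherin (Cdh1) was at 119 and 108 and then at 151 and 152 (0.42 ± 0.19, adjusted p = 0.189), and Epcam at 87.9 and 125 and then at 103 and 123. N-cadherin (Cdh2), which replaces E-cadherin in migrating mesoderm, rose from 2.88 and 3.65 to 7.95 and 15.04 (1.496 ± 0.27, adjusted p = 0.0241), while Snai1, the repressor of Cdh1, was at 8.15 and 4.03 and then at 7.26 and 9.43 (adjusted p = 0.386).

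The remaining large increases were of mixed function. Genes of 3 carbonic anhydrases, which interconvert carbon dioxide and bicarbonate, were among the 15. Car4 went from 18.6 and 8.24 to 123 and 169.7 (3.43 ± 0.65, limma adjusted p = 0.0272). Car2 went from 23.9 and 5.54 to 104 and 82.8 (2.88 ± 0.54) and Car14 from 2.87 and 1.14 to 17.8 and 20.4 (2.80 ± 0.50). Vrtn, a gene tied to vertebral number in pigs, went from 3.803 and 1.34 to 33.1 and 27.02 (3.21 ± 0.71). Gbp2, an interferon-inducible GTPase, went from 5.53 and 0.529 to 22.9 and 19.997 (2.83 ± 0.54), and Enpp2 (autotaxin), which makes lysophosphatidic acid, from 2.43 and 1.58 to 17.4 and 17.7 (2.64 ± 0.60). All 15 of the largest increases were without overlap between stages. They were chosen for the size of their change in these libraries, so this is a description and no added support.

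Immediate early genes were lower in bodies. Of 14 tested, 6 fell (3.86% of all genes fell) and none rose, and the median change was -0.96. Fosb, an AP-1 subunit, went from 35.9 and 62.9 to 1.52 and 8.04 (-3.35 ± 0.38, limma adjusted p = 0.0136), and Fos from 71.5 and 109 to 4.74 and 24.1 (-2.90 ± 0.40, adjusted p = 0.0166). Egr2 went from 8.79 and 3.72 to 0.759 and 0.445 (-2.09 ± 0.27) and Egr1, the zinc finger factor induced by ERK, from 137 and 81.3 to 25.5 and 36.9 (-1.75 ± 0.42). Here, unlike in the naive network, the list's median change was larger in replicate 1 (-1.23) than in replicate 2 (-0.73). These genes respond within minutes to serum and handling, and how the cells were handled before lysis is not given in the sources used here.

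Fibroblast genes were lower in bodies too. The fibroblast layer is present in the ESC cultures, and of 7 fibroblast markers all 7 were lower in bodies in both batches. Their summed level was 35.9 RPKM in ESCs and 24.8 RPKM in bodies of replicate 1, and 263 FPKM and 61.2 FPKM in replicate 2, and none was at 0. Col1a1 was at 7.82 and 89.7 in ESCs and at 4.04 and 23.1 in bodies (-1.36 ± 0.51, limma adjusted p = 0.127). Of 18 tested genes of the wider fibroblast list, 4 fell (3.86% of all genes fell) and 14 were lower in both batches, and the number that fell was 6 with edgeR and 11 with DESeq2. The 4 were S100a4 (17.8 and 70.0 to 4.40 and 12.5, -2.10 ± 0.27), Col3a1, Timp1 and Ccn2. Tnc, a matrix gene among the 15 largest decreases and like all 7 markers highest in replicate 2 of ESCs, went from 12.4 and 133 to 2.52 and 9.08 (-2.83 ± 0.56, adjusted p = 0.0301). In bulk RNA fewer cells of a type and less RNA per cell cannot be told apart. Summed over all 7 markers, the ESC level was 1.45 times the level in bodies in replicate 1 and 4.30 times in replicate 2. Without Thy1, which was nearly flat in replicate 1 (17.2 and 16.7), it was 2.32 times and 5.73 times. The part of the fibroblast layer in any of the decreases was not tested.

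**Figure D4:**
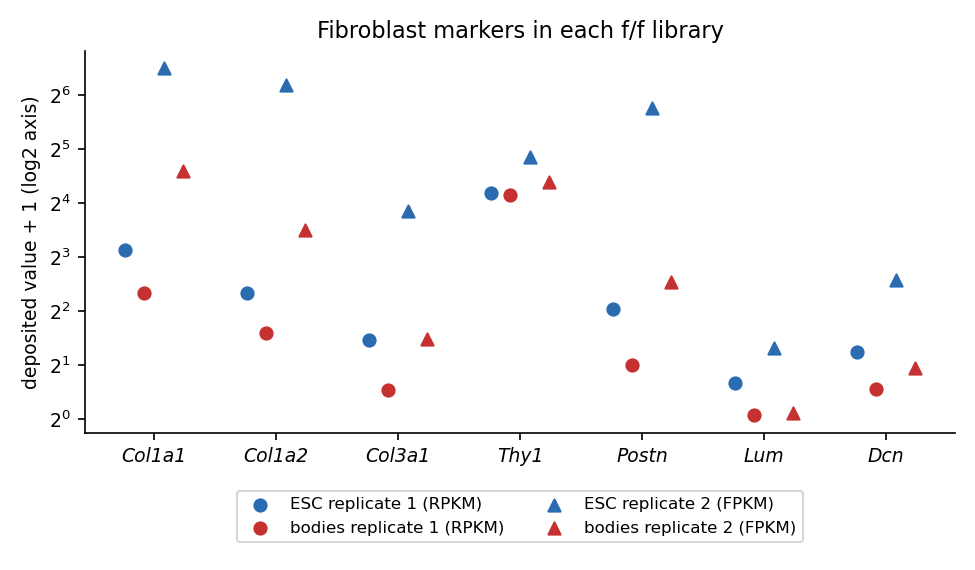
Deposited value + 1 on a log2 axis of 7 fibroblast markers in each f/f library, with ESCs in blue and bodies in red. ESC replicate 2 is the highest library for each marker, and bodies lie under the ESCs of their batch.

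The rest of the largest decreases were a mixture. Krt42, a keratin gene, went from 24.5 and 17.5 to 1.73 and 0.626 (-3.36 ± 0.42, limma adjusted p = 0.0152), about the same change in both batches. Septin1, a septin GTPase gene, went from 57.5 and 118 to 12.7 and 5.21 (-3.18 ± 0.62), and Gpa33, a cell surface antigen gene, from 45.6 and 62.5 to 12.7 and 3.26 (-2.83 ± 0.50). Calml4, a calmodulin-like gene, went from 16.0 and 8.08 to 1.496 and 0.307 (-2.78 ± 0.25, adjusted p = 0.0135).

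The microRNA cluster of miR-302 and miR-367, which replaces the miR-290 cluster as cells become primed, showed more reads over its hairpin genes in bodies. The mature forms in RefSeq (GRCm38.p6, chromosome 3) are shown with the seed, bases 2 to 8, in capitals, because the cluster shares its seed with the miR-290 cluster of ESCs, represented by miR-294 and miR-295 of chromosome 7.
miR-302b-3p: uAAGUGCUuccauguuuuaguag
miR-302d-3p: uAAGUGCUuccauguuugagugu
miR-302c-3p: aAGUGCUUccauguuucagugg
miR-367-3p: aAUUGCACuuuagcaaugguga
miR-294-3p: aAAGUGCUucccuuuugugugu
miR-295-3p: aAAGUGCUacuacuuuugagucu
The seed AAGUGCU is common to miR-302b, miR-302d, miR-294 and miR-295, miR-302c has it shifted by a base, and miR-367 has another. Mir302a was listed at 0 and 1.34 in ESCs and at 7.77 and 12.8 in bodies (2.84 ± 0.23, limma adjusted p = 0.0135), from 0 and 2 reads and then 10 and 10. Mir302d went from 1.65 and 1.40 to 6.496 and 11.997 (1.97 ± 0.24, adjusted p = 0.0145), from 2 and 2 reads to 8 and 9. Mir302b, Mir302c and Mir367 were higher in both batches and not called (adjusted p = 0.183, 0.129 and 0.0576), with 1 to 4 reads in ESCs and 5 to 18 in bodies. In the list of both clusters 11 genes were tested, 2 rose (8.13% of all genes rose) and none fell. In both batches 5 were higher and 0 were lower, and 6 had opposite signs or no change in a batch. Mir290a went from 0.654 to 2.58 in replicate 1 and from 3.91 to 1.06 in replicate 2. Replacement of the miR-290 cluster was not tested. On recovered reads edgeR called 1 member of this list and DESeq2 none. Reads over a hairpin in poly(A) RNA come from a longer transcript and do not measure the mature microRNA.

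Of 8 tested genes of DNA methylation and the TET enzymes, 3 fell and 1 rose (12% of all genes were called), and all 8 had the same sign in both batches. Tet3 rose (1.87 and 1.37 to 4.98 and 4.96, 1.19 ± 0.16, limma adjusted p = 0.0166), while Uhrf1 (-0.55 ± 0.10) and Dnmt1 (-0.49 ± 0.12), which copy methylation at replication, fell with Dnmt3l. Tet1, the main TET enzyme of ESCs, was at 56.5 and 63.4 and then at 23.3 and 8.59 (-1.99 ± 0.50, adjusted p = 0.0514). Of 15 Polycomb genes 3 fell (3.86% of all genes fell), Eed from 83.7 and 79.6 to 36.6 and 32.5 (-1.22 ± 0.10, limma adjusted p = 0.0135), Mtf2 (-0.77 ± 0.16) and Jarid2 (-0.67 ± 0.15). Ezh2, the catalytic subunit that works with EED, was at 58.2 and 63.0 and then at 47.2 and 49.0 (adjusted p = 0.103).

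None of 11 housekeeping and none of 20 ribosomal protein genes was called (limma), and 1 of 20 respiratory chain genes fell, Cox4i1 (327 and 405 to 215 and 249.5, -0.65 ± 0.13). Over all genes 12% were called, and each of these lists is too short to be told apart from that share. With median-of-ratios scaling or edgeR 4 respiratory chain genes fell, and with DESeq2 6. Ribosomal protein genes were counted differently in the batches, with Rps6 at 6.97 RPKM and 999 FPKM in ESCs, so their changes are uncertain. Of 20 cell cycle genes 4 fell (3.86% of all genes fell), 1 rose (8.13% of all genes rose) and 15 were not called, with a median of -0.06. Those that fell were E2f1, Ccne1, Ccnd3 and Rrm2, between -0.83 and -0.47. Their number was 2 with the 4 f/f libraries alone and 5 with edgeR or DESeq2. The mitotic kinase Cdk1 rose (0.42 ± 0.10) and was named after its values were seen. Its call was lost with median-of-ratios scaling, with a mean of at least 5, with the 4 f/f libraries alone, with edgeR and with DESeq2. Of 16 genes of the p53 axis and arrest 13 were not called (12% of all genes were called). Sesn2 (-1.03 ± 0.19) and Gadd45a (-0.91 ± 0.22) fell and the CDK inhibitor Cdkn1b rose (0.61 ± 0.15). The call of Cdkn1b was lost with either other scaling, with a mean of at least 5, with the 4 f/f libraries alone and with edgeR. Of 17 imprinted genes 1 rose (8.13% of all genes rose), Nnat (22.8 and 12.3 to 39.3 and 30.4, 0.997 ± 0.22), and 16 were not called. The call of Nnat was lost with median-of-ratios scaling and edgeR. Slc2a1 (GLUT1), the glucose transporter gene, was the most abundant of all increases past 1.5-fold, from 239 and 176 to 582 and 527 (1.43 ± 0.12, adjusted p = 0.0135). Of 20 tested genes of glycolysis and hypoxia 17 were not called, and the median change was 0.00 (12% of all genes were called). Slc2a1 was the 1 that rose, and Hk2 (-0.61 ± 0.10) and Pfkp (-1.63 ± 0.31) fell. The contractile genes Tpm1 (69.2 and 54.0 to 247 and 227, 1.94 ± 0.16) and Myh9 (105 and 169 to 162 and 262, 0.63 ± 0.10) and the growth factor Mdk (82.8 and 68.3 to 211 and 198, 1.43 ± 0.21) were other abundant increases. The metallothionein Mt1 (669 and 543.5 to 322 and 199, -1.25 ± 0.19), the corepressor Trim28 (519 and 589 to 364 and 332, -0.67 ± 0.14), Apoe (-0.82 ± 0.17) and Atf4 (-0.92 ± 0.22) were the other most abundant decreases.

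In DKO cells, which lack MLL4 as well, the same stage change had fewer calls: 25 genes rose (0.201%) and 78 fell (0.626%). A difference in the number of calls is no test, and the test of the difference itself (stage change in f/f minus that in DKO) called 0 of 12466 genes by limma, 0 by edgeR and 420 (3.37%) by DESeq2, with 1704 at an unadjusted p under 0.05 in limma. The smallest adjusted p was 0.0657. Named genes were chosen on their f/f change, so a smaller DKO change is no result about them. The values side by side were as follows. Tbxt changed by 4.11 ± 0.57 in f/f and by 0.21 ± 0.57 in DKO (difference 3.90, adjusted p = 0.145), and Mixl1 by 3.09 ± 0.25 and -0.07 ± 0.25 (difference 3.16, adjusted p = 0.0709). For Sox3 the changes were 2.57 ± 0.28 and -1.11 ± 0.28 (difference 3.68 ± 0.39, adjusted p = 0.0709). Klf4 changed by -3.72 ± 0.56 and -2.05 ± 0.56 (difference -1.67, adjusted p = 0.422). Zic2 changed by 1.69 ± 0.15 and 1.55 ± 0.15, and Socs3 by -2.56 ± 0.32 and -2.54 ± 0.32. By list, the median change was 2.22 in f/f and 0.02 in DKO for the primitive streak, -2.77 and -1.15 for naive pluripotency, 1.54 and 1.15 for the primed epiblast, and -0.96 and -2.80 for immediate early genes. None of these differences passed limma's threshold gene by gene. Streak genes near 0 in ESCs pass the filter on low values through a group where they are higher. The streak medians of f/f and DKO cells are therefore a description and test nothing.

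**Figure D5:**
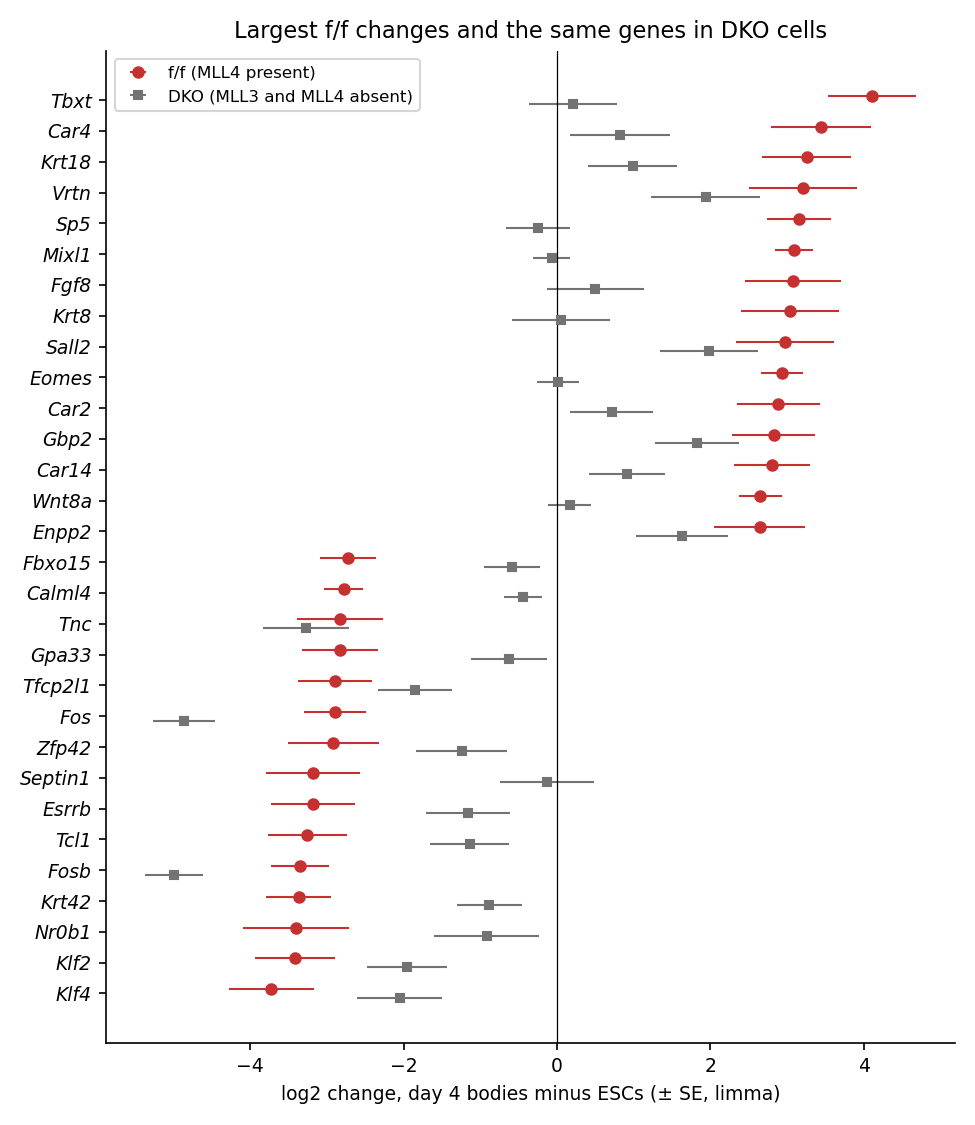
Log2 change from ESCs to bodies with its standard error (limma) for the 15 largest increases and 15 largest decreases of f/f cells, in f/f (red circles) and in DKO cells (grey squares). The genes were chosen on the f/f values; in DKO cells 13 of the 15 increases and all 15 decreases have the same sign, and Fos, Fosb and Tnc have the larger change there.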

How the data were processed

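RNA-seq of 4 f/f libraries was analysed with 4 DKO libraries in the same fit. Per the file headers, the authors deposited read counts in exonic regions and RPKM per RefSeq transcript for replicate 1, and FPKM per Entrez gene for replicate 2. For replicate 1 the submitters' processing notes list bedtools 2.16 and SICER 1.1, for replicate 2 CASAVA 1.8.2 and SICER, and mm9 as build for both. No source used here names the aligner, annotation release or strand setting, so overlapping, antisense and near-identical genes are uncertain.

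Accessions of transcripts were looked up in a RefSeq gene table of GRCm38.p6, used for names (28436 of 29082 matched), and 22456 genes were in both kinds of file. The transcript with most reads stood for each of 3760 genes that had several. Depth behind RPKM came from counts and lengths, and behind FPKM from the steps of low values, of which 90.3% to 91.2% were whole reads within 0.02 reads. Genes averaging 1 or more over the 8 libraries were tested with limma 3.58.1 (R 4.3.3; trended empirical Bayes, two-sided) on log2(value + 1), with 4 groups and the batch as a block, leaving 3 residual and 3.27 prior degrees of freedom. The scale understates changes of low genes. Benjamini-Hochberg adjustment ran over all 12466 genes. The block was used because libraries of a batch deviated together from their group means (correlation 0.864 to 0.954). Replicate numbers come from the title suffix of the second batch. No count test could be the main test because replicate 2 has no deposited counts; edgeR 4.0.16 and DESeq2 1.42.0 on recovered reads were alternatives. The fit was also run on simulated counts with planted changes, independent libraries and the same fixed dispersion for all genes. That run checks the code and does not measure the error of the calls made here.

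The genes and 35 lists were chosen with earlier results of these data known. Named were the targeted genes, the 15 largest calls in each direction with a word-like symbol, up to 4 called and 3 uncalled members of each list and the 5 most abundant calls past 1.5-fold in each direction. Some genes that this rule names are not reported here. Promoter windows and microRNAs are RefSeq sequences of GRCm38.p6.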

Additional observations from a re-analysis of the deposited data

How the results depend on the processing

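None of the 100 called named genes changed direction under any alternative, while 26 of 97 uncalled ones did under at least 1. A call already needs the same sign in both batches, and called genes were named by the size of their change. This contrast was therefore largely fixed by the choice and is no added support. For the f/f stage comparison, 1495 genes were called. DESeq2 on recovered reads called 2465, a mean of at least 5 left 990 calls of 8756 genes tested, and without the batch as replicate block none was called by limma (1950 genes at an unadjusted p under 0.05). The block is the pairing of same-batch libraries, and the 4 f/f libraries alone with it gave 1125 calls, 904 of them among the 1495. Leaving out 1 library at a time, with the lone library of its group assumed to vary like the others, gave between 0 and 1882 calls. For the difference of the stage changes, DESeq2 called 420 genes, and each other alternative and each left-out library gave 0. Pseudocounts of 0.1 and 5 gave 1434 and 1430 calls, and median-of-ratios scaling kept 1295 and edgeR 1200 of the 1495 genes. The 15 largest increases and 15 largest decreases kept their calls in all 30 cases with median-of-ratios scaling, with DESeq2 and with the 4 f/f libraries alone, in 24 with edgeR and in 18 with no filter on low values. Of the 13 streak genes, 5 were called with edgeR or a pseudocount of 0.1 in place of 8. How depth limits the named genes was not tested; the lowest read counts printed are those of the microRNA hairpins.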

Other observations

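Genes switched on or off were read without a test over all 22456 genes with values. Under 1 in both f/f ESC libraries and at least 3 in both body libraries were 25 genes. They included Mesp1, the factor of the first cardiac mesoderm, at 0 and 0.0861 in ESCs and at 3.09 and 4.00 in bodies (0 and 2 reads, then 62 and 49). Aplnr, the apelin receptor gene of nascent mesoderm, was at 0.442 and 0 and then at 5.79 and 4.57, and the sarcomeric actin gene Actc1 at 0.781 and 0.100 and then at 4.67 and 6.08. Evx1, a homeobox gene of the posterior streak, was at 0.434 and 0.0322 and then at 3.39 and 4.80. In the other direction, 7 genes were at least 3 in both ESC libraries and under 1 in both body libraries, among them Egr2, Notch4 (4.09 and 9.76 to 0.949 and 0.799) and Serpinb6c (4.21 and 9.74 to 0.161 and 0.530). These genes were chosen after their values were seen.

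The 6 genes that changed at least 2-fold in opposite directions in the batches were Bmp4, its target Id2 (39.5 to 16.9 in replicate 1, 6.92 to 15.3 in replicate 2), Prss23, Mir290a, Mir3072 and Snord111. Other wide gaps between batches were in Spink1 (2.96 to 3.05 in replicate 1, 1.21 to 14.4 in replicate 2) and Lox (3.62 to 1.61, 35.9 to 2.41). Igf2, an imprinted growth factor gene, was at 5.20 and 16.3 in ESCs and at 16.3 and 149.7 in bodies (limma, adjusted p = 0.0993).

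By class of RNA, 997 of 11848 protein-coding genes rose and 464 fell. Over all genes 8.13% rose and 3.86% fell. Of 269 long noncoding RNAs 11 rose, among them Miat (0.710 and 0.323 to 3.60 and 2.58) and Snhg5 (27.6 and 39.0 to 58.8 and 66.7), and 4 fell. Of 97 small nucleolar RNAs none rose and 7 fell (limma; median change -0.30), for example Snord2 (46.3 and 64.1 to 19.7 and 27.2). Poly(A) selection does not target these RNAs, and their values can hold reads of host gene transcripts.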
